A study of Mus musculus with 16 samples.

Results

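A set of 732 DNase regions was present in every WT library and in no KO library of Bcl11b-floxed Th2 cells. The regions were found by joining all DNase islands of the 8 DNase libraries wherever they overlapped or touched, which gave 47976 merged regions. Those with an island in all 4 WT lists and in none of the 4 KO lists were kept, which was 1.53% of the merged regions. An island is a stretch of 200-bp windows in which reads were enriched, and coordinates are on the mouse build mm9. The members were thus chosen by the DNase islands of these same libraries, and their DNase values are given as a description. H3K27ac came from other libraries and was tested. The labels do not say whether the DNase and H3K27ac libraries shared cultures, so the test may not be independent of the choice of members.

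DNase I cuts DNA where nucleosomes leave it exposed, so DNase islands mark accessible chromatin, which includes promoters, enhancers and insulators. Acetylation of histone H3 at lysine 27 (H3K27ac) is laid down by the acetyltransferases p300 and CBP and marks active promoters and enhancers, and accessible sites without it include poised enhancers and insulators. Bcl11b is a zinc finger transcription factor needed for commitment to the T cell lineage, and it keeps acting in mature CD4 T cells. In its title the series links Bcl11b to GATA3, the factor that defines T helper 2 (Th2) cells, and the design sets open and acetylated chromatin of cells with and without Bcl11b side by side.

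All groups were CD4 T cells of mice with floxed Bcl11b alleles and CreERT2, a Cre recombinase active only with 4-hydroxytamoxifen (4-OHT), on a C57BL/6 background. Early KO cells were kept under Th2 conditions with 4-OHT for 4 days, and early WT cells for 4 days without it. Late KO cells were kept 4 days under Th2 conditions without 4-OHT, then rested 1 day in IL-2, and received 4-OHT in a second Th2 culture of 4 days. Late WT cells went through the same steps and never received 4-OHT. Each of these 4 groups had 2 DNase and 2 H3K27ac libraries. No WT library came from cells given 4-OHT, so loss of Bcl11b and exposure to 4-OHT cannot be told apart, and the deletion was not checked here. The cells are labelled as naive, and a sort for high CD44, a marker of activated cells, is given as well. The labels do not say that replicates were separate cultures or animals, so p-values measure only the spread between these libraries, which may be technical.

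The DNase lists differed in length with genotype. They held 24286 and 37956 islands in early KO, against 37525 and 39736 in early WT, and 18812 and 17397 in late KO, against 27416 and 36963 in late WT. Only the list of early KO replicate 2 was as long as the WT lists, and it was longer than 3 of them. The H3K27ac lists were closer to each other, with 26548 to 32112 islands over 100.9 to 111.7 Mb. Each list gives a score per island from the authors' caller and no read counts, so the sequencing depth is unknown and a missing island is not proof of closed chromatin. In cultures of many cells, fewer open cells and less open chromatin per cell cannot be told apart.

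The WT-only regions were short and sat in the lower part of the WT lists by score. Their median width was 1600 bp (quartiles 1200 and 2200 bp, range 400 to 7600 bp), against 1800 bp for all merged regions and 2800 bp for the 13100 regions found in all 8 lists. Scores were turned into percentiles within each list, from 0 for the weakest island to 100 for the strongest. The mean over the 4 WT lists had a median of 26.7 for the members, with quartiles of 20.2 and 33.2. It exceeded 50 in 26 members (3.55%) and was under 10 in 12. By library, the median percentile of the members was 16.3 and 33.5 in late WT, against 26.1 and 31.6 in early WT. The replicates of late WT lay further apart than the stages did. In 123 members both late WT percentiles were above both early WT ones, and in 212 both were below. These counts were not taken over all merged regions, so they show no trait of the members.

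The score rose step by step with the number of KO lists that held a region. Among regions with an island in all 4 WT lists, the median WT percentile was 26.7 with no KO list, 35.2 with 1, 45.6 with 2, 54.4 with 3 and 79.7 with all 4. The regions just outside the rule show where the threshold falls. Of the 2751 regions in all 4 WT lists and 1 KO list, 2619 had their KO island in early KO replicate 2, 57 in early KO replicate 1, 45 in late KO replicate 1 and 30 in late KO replicate 2. The median percentile of that island within its own list was 29.5 in early KO replicate 2 and between 8.82 and 13.0 in the other 3. On the other side, 1706 regions had an island in 3 WT lists and no KO list, with a median WT percentile of 21.0. The mirror class, found in all 4 KO lists and no WT list, held 144 regions.

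**Figure D1:**
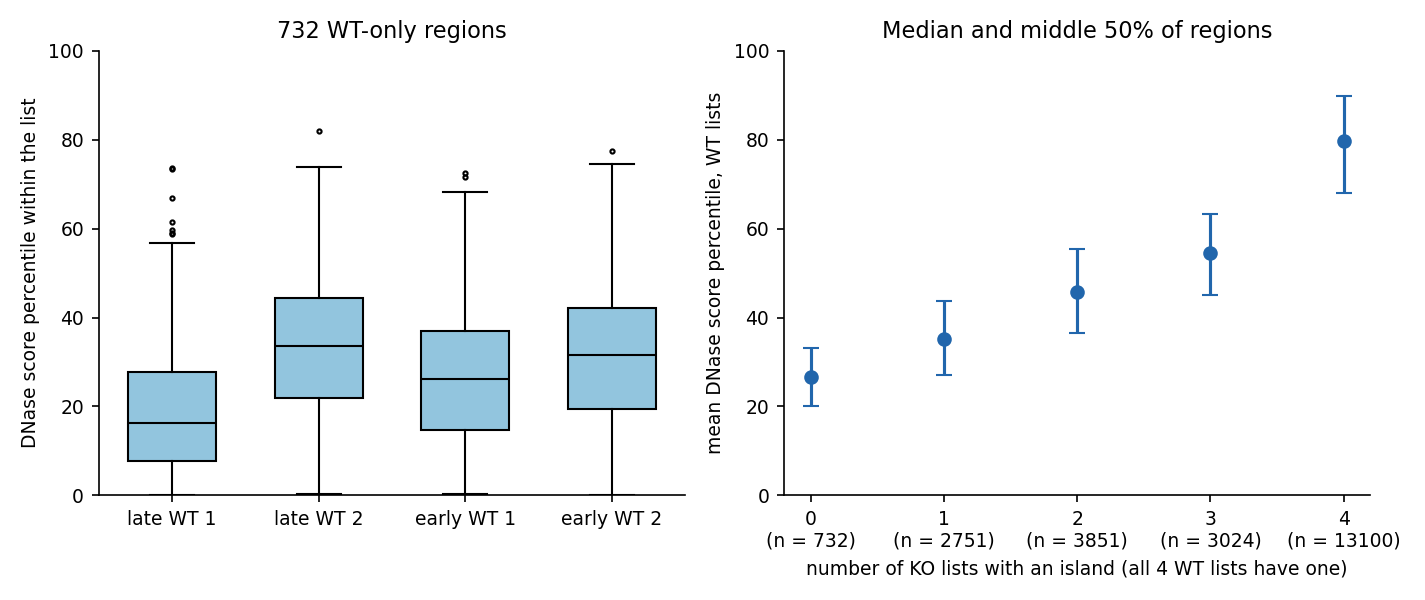
Left, DNase score percentile of the 732 WT-only regions within each WT list (boxes give quartiles and median, whiskers 1.5 times the box, points the regions beyond). Right, median mean percentile over the 4 WT lists (bars span the quartiles) for regions in all 4 WT lists, by the number of KO lists that also hold them, which climbs from 26.7 with no KO list to 79.7 with 4.

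The count of WT-only regions changed much with the lists used. When every DNase list was cut to its strongest islands at the length of the shortest list, 198 regions were WT-only and 331 KO-only, and 5 of the 732 members (0.683%) were among the 198. That setting also takes weak islands out of the WT lists, where most members sit. Without the list of early KO replicate 2 the rule kept 3373 regions, and without that of late WT replicate 1 it kept 2053. Leaving out any other single list gave 761 to 994. With islands up to 1 kb apart merged, 637 regions met the rule, and 634 of the 732 members (86.6%) lay in them. Where the WT islands had to cover at least 50% of the region in each WT list, 212 members were left.

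The members were spread over the chromosomes, and most had no other member within 100 kb. They made up between 1.07% of the merged regions of chromosome 18 (15 of 1403) and 1.89% of those of chromosome 3 (44 of 2333). A second member lay within 100 kb of 123 members (16.8%), and no such share was taken for as many other regions. The nearest DNase island of any KO list was a median of 7500 bp away. It was within 5 kb for 40.3% of the members and within 1 kb for 68 (9.29%). For regions in 3 WT lists and no KO list the median was 7800 bp, with 37.4% within 5 kb. The nearest region open in all 8 lists was a median of 19000 bp away, against 24200 bp for all merged regions. Of the members 22.4% had one within 5 kb, against 17.4% of all merged regions. Similar values were found for regions in all 4 WT lists and 1 KO list (20800 bp, 20.2%) and for regions in all 8 lists (20000 bp, 19.6%).

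The strongest member by score was chr11:109619001-109621600, with DNase percentiles of 73.3 and 81.8 in late WT and 72.6 and 77.5 in early WT. It stood well above the rest, since the next had a mean percentile of 58.9 against its 76.3. The other 9 of the strongest 10 lay between 56.1 and 58.9. Their H3K27ac differed from region to region, from none in any library (chr13:23783001-23784600) to a nearly full window in all 8 (chr16:75893801-75896000).

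Around 1 member in 2 carried H3K27ac in early cells, and more did in late WT cells. An H3K27ac island lay over 52.5% and 47.4% of the members in early KO, against 50.6% and 55.9% in early WT. In late cells the shares were 57.0% and 57.1% in KO and 62.8% and 69.5% in WT. For all merged regions the shares were 64.7% and 61.0% in early KO, 54.5% and 56.6% in early WT, 61.5% and 61.8% in late KO and 57.8% and 62.5% in late WT. Across all merged regions both early KO libraries were thus above both early WT libraries, while at the members the KO and WT shares overlapped in early cells and the KO shares were the lower ones in late cells.

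Most members had H3K27ac in KO cells although no KO list held a DNase island there, with an H3K27ac island in at least 1 KO library over 470 of the 732 (64.2%, against 69.8% of all merged regions). H3K27ac lay over 315 members in all 4 KO libraries (43.0%, against 54.6% of all merged regions) and over 335 in all 4 WT libraries (45.8%, against 48.5%). It was there in all 8 at 284 members (38.8%, against 46.3% of all merged regions). A further 177 members (24.2%) had it in none, against 26.3% of all merged regions. Most members were therefore alike in KO and WT in having or lacking H3K27ac islands. More WT than KO libraries had H3K27ac at 158 members (21.6%), against 7.58% of all merged regions, and more KO than WT libraries at 68 (9.29%), against 16.0%. The full pattern of the DNase rule, all 4 WT and no KO library, was seen in H3K27ac at 9 members (1.23%), against 0.234% of all merged regions. The reverse pattern was seen at 1 member (0.137%), against 719 of the 47976 merged regions.

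Where H3K27ac was present in all 8 libraries, its islands at the members were of middling rank. Over those 284 members the median H3K27ac percentile within the list was 48.8 and 45.3 in early KO, against 52.5 and 55.0 in early WT, and 52.1 and 51.4 in late KO, against 55.1 and 62.7 in late WT. Over the 22230 merged regions with H3K27ac in all 8 libraries it was between 67.5 and 73.0. Both KO libraries were below both WT libraries at each stage for the members.

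H3K27ac coverage was highest at the centre of the members. In early KO, 49.2% and 44.4% of the members were covered at their centre, against 48.8% and 52.7% in early WT. In late KO it was 53.7% and 53.6%, against 60.1% and 65.7% in late WT. At 5 kb to either side coverage was between 15.0% and 20.2% in all 8 libraries. Regions in all 8 DNase lists peaked at the centre too, with 89.8% to 95.4% there and 19.9% to 22.9% at 5 kb. When H3K27ac islands of all libraries were merged, 555 members (75.8%, against 73.7% of all merged regions) lay in such a domain. Its median length was 4.0 kb, against 4.4 kb for all merged regions in a domain. The domain held no other DNase region for 353 of them (63.6%, against 67.2% of all merged regions in a domain). It also held a region open in all 8 lists for 115 (20.7%, against 17.2%).

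**Figure D2:**
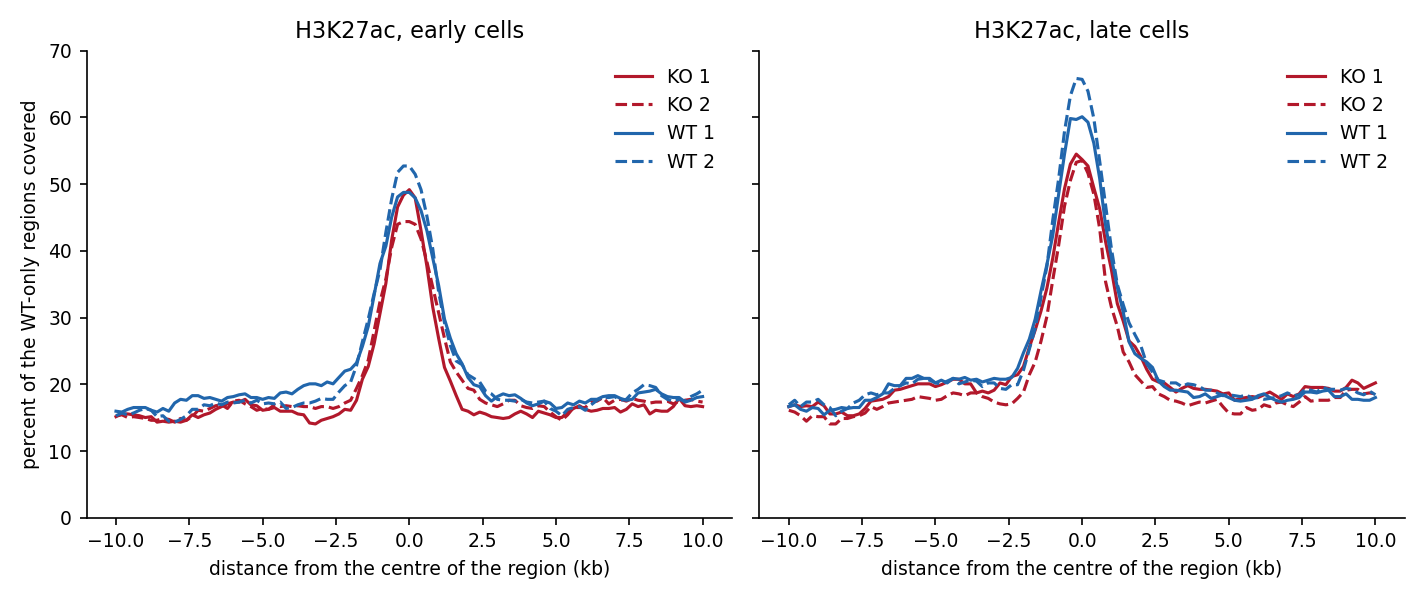
Percent of the 732 WT-only DNase regions covered by an H3K27ac island at each distance from the region's centre (kb), for each KO and WT library, early on the left and late on the right. All libraries peak at the centre, and the late KO lines (53.7% and 53.6% at the centre) lie below the late WT lines (60.1% and 65.7%).

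H3K27ac was lower in KO at more of the members than it was higher. To test it, the length of H3K27ac island within 5 kb centred on each merged region was taken as log2(kb + 0.5), and limma was fitted over all merged regions whose window held H3K27ac in at least 2 of the 8 libraries. Of all merged regions 34807 were tested, and of the members 544, so that 188 members were not tested. Regions with a Benjamini-Hochberg adjusted p under 0.05 over all tested regions were called, and "fell" and "rose" are used of these. For the mean of both stages, H3K27ac fell in KO at 92 members (16.9% of those tested), where 4.82% of all tested regions fell. It rose at 18 members (3.31%), where 10.3% of all tested regions rose. The other 434 did not pass. The median log2 difference, KO minus WT, was -0.15 over the tested members and -0.01 over all tested regions.

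The filter bears on these shares, because a window could pass through WT libraries alone or through KO libraries alone. With no filter all 732 members were tested, and 84 fell (11.5%) where 3.14% of all regions fell, while 13 rose (1.78%) where 6.86% of all regions rose. The count of falls was 52 without late WT replicate 1, 42 of them among the 92, and then 9.98% of tested members fell, against 3.64% of all tested regions. It was 50 without late WT replicate 2, 46 of them among the 92, with 9.8% of members against 3.28% of all tested regions. The count of rises was smaller without late KO replicate 1 and also without late KO replicate 2. In both settings the share of members that rose stayed below that of all tested regions. Without any test, the H3K27ac length in all 4 KO libraries was below that in all 4 WT libraries at 33 members (4.51%), where 1.19% of all merged regions had that order. It was above at 9 members (1.23%), where 4.26% of all merged regions had it.

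The shares were also taken over other sets of WT-only regions. Over regions made from DNase lists of equal length, 183 WT-only regions, few of them members, were tested and 10 fell (5.46%), where 2.26% of all regions so made fell, and 3 rose (1.64%), where 8.9% rose. Over regions made without both late KO lists, the shortest ones, 636 WT-only regions were tested. There 101 fell (15.9%), where 4.76% of all regions fell, and 19 rose (2.99%), where 10.2% rose.

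Regions near the rule showed the falls in part. Of the 1006 tested regions in 3 WT lists and no KO list, 13.9% fell and 5.86% rose. Of the 2071 tested regions in all 4 WT lists and 1 KO list, 7.48% fell and 5.99% rose. Regions in all 8 lists fell in 1.4% and rose in 4.6%. Of the KO-only regions 113 were tested with limma, and 77 rose (68.1%) and 0 fell, with 0 also at an unadjusted p under 0.05. The difference in these shares between the classes was not tested.

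**Figure D3:**
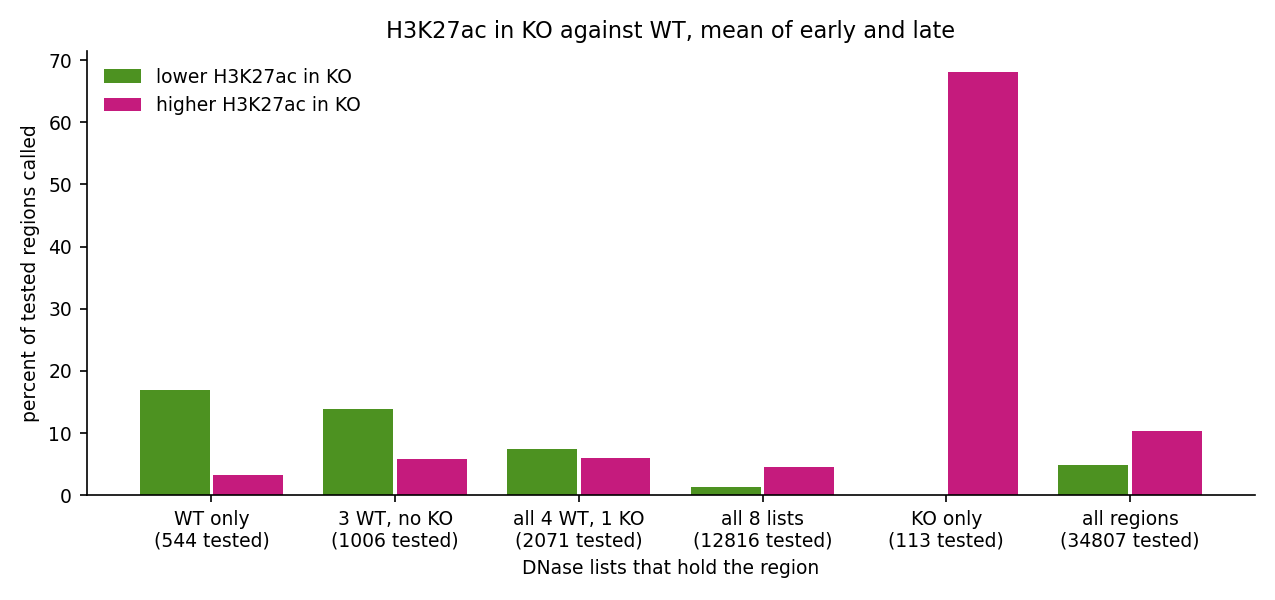
Percent of tested DNase regions at which H3K27ac was called lower or higher in KO than in WT (limma, mean of early and late, adjusted p under 0.05), by the DNase lists that hold the region. WT-only regions were lower in 16.9% and higher in 3.31%, while over all regions 4.82% were lower and 10.3% higher.

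The members were ordered by mean WT percentile, on which the rule itself bears, and cut into 3 sets of 244. H3K27ac fell at 16 of 158 tested members of the weakest set (10.1%), 31 of 186 of the middle set (16.7%) and 45 of 200 of the strongest set (22.5%). It rose at 4, 7 and 7. In the same order 82, 57 and 38 members had no H3K27ac island in any library. These differences were not tested. Over all tested regions 4.82% fell, but shares for other regions in the same percentile ranges were not taken. Whether the order is particular to the members is thus unknown.

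The 92 falls ranged from windows without any H3K27ac in KO to windows with less of it. In their windows the mean length of H3K27ac was 0.98 kb in early KO, against 2.26 kb in early WT. It was 1.21 kb in late KO, against 2.51 kb in late WT. Both early KO libraries were at 0 for 52 of them, and at 23 of these both early WT libraries were at 0 as well. Both late KO libraries were at 0 for 48, and at 8 of these both late WT libraries were too. All 4 KO libraries were at 0 for 41 of the 92. At 31 of the 92, H3K27ac was present in the window in all 8 libraries, and there the median log2 difference was -0.44. A window listed at 0 in both libraries of a group has no measurable spread there beyond the centring of the libraries. That group still counts in the spread pooled over the 4 groups and lowers it, next to limma's spread shared over regions. The p-values of such windows may therefore be too small. Lengths are given for such windows in place of a fold.

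The clearest fall was at chr9:80430801-80433000, which was also the seventh strongest member by DNase score. Its window held no H3K27ac in any KO library, against 4.4 and 3.6 kb in early WT, with 3.6 and 4.0 kb in late WT, and the groups did not overlap at either stage. The limma adjusted p was 0.000295 for early, 0.000783 for late and 0.000163 for the mean of both. With only the upper 50% of each H3K27ac list by score, the adjusted p for the mean was 0.456.

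Of the 8 largest falls, 5 more had no H3K27ac in any KO window and some in all 4 WT windows. The window of chr2:115498001-115500200 was at 0 in the 4 KO libraries, against 4.0 and 3.0 kb in early WT, with 2.6 and 3.0 kb in late WT (limma adjusted p = 0.000163 for the mean of both stages). The window of chr3:65660601-65663000 was at 0 in KO, against 2.6 and 2.6 kb in early WT, with 3.6 and 3.8 kb in late WT (limma adjusted p = 0.000163), although its DNase islands were weak, with a mean percentile of 14.8. The window of chr10:44081601-44083600 was at 0 in KO, against 3.1 and 1.8 kb in early WT, with 3.3 and 2.2 kb in late WT (limma adjusted p = 0.000413). DNase strength thus differed widely among members with the same H3K27ac pattern. At chr13:30200001-30202200 KO was at 0, against 5.0 and 1.8 kb in early WT, with 1.6 and 2.2 kb in late WT (limma adjusted p = 0.00187). At chr14:56333601-56334600 KO was at 0, against 1.4 and 3.0 kb in early WT, with 2.2 and 2.2 kb in late WT (limma adjusted p = 0.000886). The 2 early WT libraries were far apart in both of these windows, and each still exceeded every KO library.

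The remaining 2 of the 8 largest falls were less even. The window of chr16:92635601-92637000 was at 0 in KO, against 4.6 and 4.8 kb in early WT, with 0 and 3.2 kb in late WT. Its limma adjusted p was 0.0456, and it was not called under 10 of the 15 alternatives that gave a value, where p reached 0.151. The window of chr10:92697001-92698000 held 0 and 0 kb in early KO, against 2.4 and 4.2 kb in early WT. Late KO held 0.2 and 1.2 kb, against 1.8 and 2.2 kb in late WT (limma adjusted p = 0.00919). It was the only one of the 8 with any H3K27ac in a KO window, in late cells, and its call was lost with a 2-kb window and with the upper 50% of each list.

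Of the 10 members with the strongest DNase islands, 9 were tested and 4 fell for the mean of both stages. The strongest, on chromosome 11, held 2.6 and 3.2 kb of H3K27ac in early KO, against 4.0 and 3.2 kb in early WT. Late KO held 2.6 and 3.0 kb, against 4.0 and 4.2 kb in late WT. KO was lower by a log2 of -0.42 (SE 0.103, limma adjusted p = 0.0427), with late groups apart and early groups touching at 3.2 kb. Its call did not hold under 10 of 16 alternatives, where p reached 0.151. At chr1:155191401-155195400 early KO had 2.4 and 2.7 kb, against 4.3 and 4.3 kb in early WT, and late KO had 4.3 and 4.7 kb, against 4.3 and 4.3 kb in late WT. It fell in early KO by a log2 of -0.71 (SE 0.092, limma adjusted p = 0.00323), and for the mean of both stages p was 0.0157, and between 0.0545 and 0.0664 without early KO replicate 1, early WT replicate 1 or either late WT replicate. The late groups met at 4.3 kb, and the effect differed between stages (limma adjusted p = 0.0194). The other 2 that fell were the chr9 region above and chr6:34901601-34907000, described next. The 5 tested ones that did not pass had limma adjusted p-values of 0.0547 to 0.939 for the mean of both stages. One of these, chr1:145443201-145445800, fell in early KO, with 2.8 and 2.2 kb against 3.8 and 4.0 kb in early WT (limma adjusted p = 0.0322).

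Most falls were called at 1 stage and not at the other, which alone does not show that the stages differ. In early cells H3K27ac fell in KO at 46 members (8.46% of those tested), where 3.03% of all tested regions fell, and rose at 15 (2.76%), where 8.83% of all tested regions rose. In late cells it fell at 47 (8.64%), where 2.21% of all tested regions fell, and rose at 5 (0.919%), where 3.71% rose. Falls thus outnumbered rises at each stage, while over all tested regions rises outnumbered falls. With no filter on windows, 6.15% of the members fell in early cells, against 1.91% of all regions, and 2.05% rose, against 6.07%. In late cells 6.56% fell, against 1.53%, and 0.683% rose, against 2.58%. The count of late falls was 22 without late WT replicate 1, 14 of them among the 47 (4.22% of tested members, against 1.87% of all tested regions). It was 15 without late WT replicate 2, all 15 among the 47 (2.94%, against 1.24%). Early rises were more numerous without early WT replicate 2. Late rises were fewer when either late KO library was left out and more numerous when late WT replicate 2 was. In each of these settings the share of members that rose stayed below that of all tested regions. A fall was called at both stages at 12 tested members (2.21%, against 0.442% of all tested regions), in early cells alone at 34 (6.25%, against 2.57%) and in late cells alone at 35 (6.43%, against 1.72%). A rise was called at both stages at 1 (0.184%, against 2.24%). No member was called in opposite directions, as 24 of all tested regions were.

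**Figure D4:**
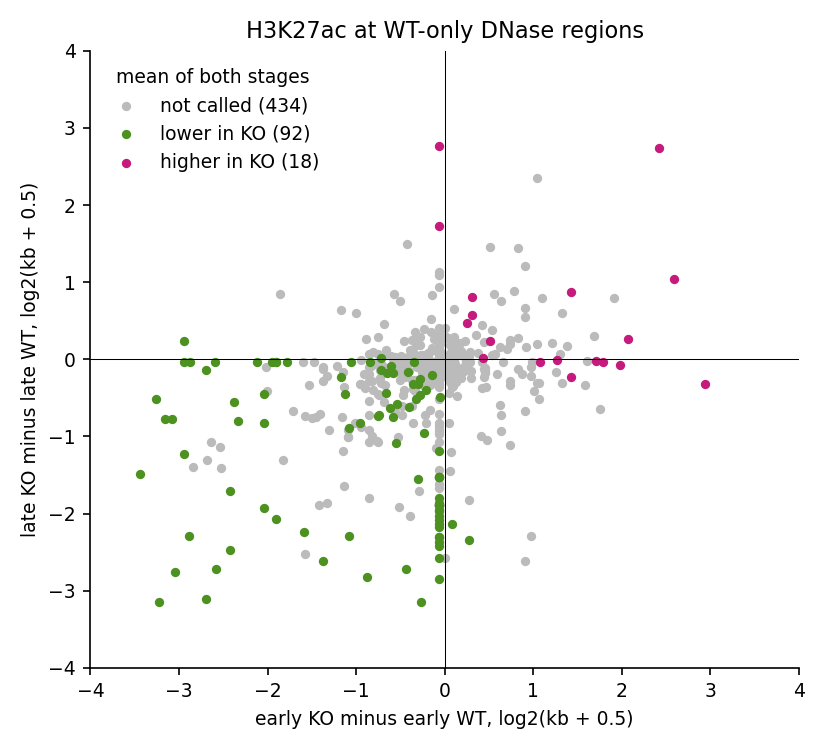
Log2 difference in H3K27ac window length, KO minus WT, for the 544 tested WT-only regions, in early cells (x axis) against late cells (y axis), coloured by the call for the mean of both stages (92 lower, 18 higher, 434 not called). Points in a vertical line near 0 are the 57 windows with no H3K27ac in any early library, where centring of the libraries alone sets the value.

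In early cells the largest falls besides the chr9 region were windows that had H3K27ac in every library but early KO. At chr6:34901601-34907000, one of the 10 strongest DNase members, early KO had 0 and 0 kb, against 4.0 and 4.2 kb in early WT, and late KO had 3.6 and 2.8 kb, against 4.6 and 4.6 kb in late WT. It fell in early KO (limma adjusted p = 0.000295), while the late difference did not pass (limma adjusted p = 0.13). With the upper 50% of each H3K27ac list the early p was 0.992. At chr2:160777401-160779000 early KO had 0 and 0 kb, against 4.1 and 3.5 kb in early WT (limma adjusted p = 0.000312), and late KO had 2.4 and 1.4 kb, against 3.4 and 3.4 kb in late WT (limma adjusted p = 0.118). At chr1:145327601-145330400 early KO had 0 and 0 kb, against 3.7 and 3.4 kb in early WT (limma adjusted p = 0.000295), and late KO had 2.6 and 2.2 kb, against 4.3 and 4.3 kb in late WT. There the late fall passed too (log2 -0.77, SE 0.134, limma adjusted p = 0.0233), and the early limma adjusted p was 0.992 with the upper 50% of each list. In all 3 windows the late KO libraries lay below the late WT libraries without overlap.

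In late cells the largest falls took 2 forms besides the chr9 and chr3 regions above. At chr3:52101201-52105200 late KO had 0 and 0 kb, against 3.6 and 4.0 kb in late WT (limma adjusted p = 0.000783), while early KO had 4.2 and 3.8 kb, against 4.5 and 4.9 kb in early WT (limma adjusted p = 0.389). At chr13:24842801-24843800 late KO had 0 and 0 kb, against 3.2 and 2.8 kb in late WT (limma adjusted p = 0.000783), and no early library had any. The first window thus had H3K27ac in every library but late KO, and the second only in late WT. The second passed the filter through both late WT libraries alone, and it could not be tested when either was left out.

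At 18 members H3K27ac rose in KO, although by the rule no KO list held a DNase island there. The largest rise was at chr17:34768001-34770000, with 1.6 and 3.2 kb in early KO and 3.3 and 2.6 kb in late KO, against 0 kb in all 4 WT libraries (limma adjusted p = 0.00172 for early, 0.00185 for late and 0.00044 for the mean). It was the only member with H3K27ac over it in all 4 KO and no WT library, and the only one to rise at both stages. Its DNase percentiles of 13.5 and 29.7 in late WT and 38.6 and 48.6 in early WT were ordinary for a member.

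Most other large rises lay in early cells. At chr1:133598801-133601200 early KO had 3.2 and 3.8 kb, against 0 and 0 kb in early WT (limma adjusted p = 0.000549), while late KO had 3.9 and 2.0 kb, against 3.6 and 3.5 kb in late WT (limma adjusted p = 0.701). At chr1:134285801-134288800 early KO had 2.0 and 1.4 kb, against 0 and 0 kb in early WT (limma adjusted p = 0.00113), and late KO had 1.6 and 1.6 kb, against 1.2 and 1.2 kb in late WT (limma adjusted p = 0.724). At chr15:25426201-25427600 early KO had 1.2 and 2.0 kb, against 0 and 0 kb in early WT (limma adjusted p = 0.00132), and late KO had 3.6 and 3.2 kb, against 3.2 and 3.8 kb in late WT (limma adjusted p = 0.975). In these windows H3K27ac was missing from early WT and present in the 3 other groups. The same held at chr7:19424801-19427200, with 1.2 and 1.4 kb in early KO, against 0 and 0 kb in early WT (limma adjusted p = 0.000765). Its difference for the mean of both stages was a log2 of 0.88 (limma adjusted p = 0.00372), and with H3K27ac lists of equal length it turned to -0.03 (limma adjusted p = 0.877). The early call on chromosome 15 was lost with a 2-kb window (limma adjusted p = 0.634) and that at chr1:134285801-134288800 with H3K27ac lists of equal length (limma adjusted p = 0.414). The one at chr1:133598801-133601200 was lost with the upper 50% of each list (limma adjusted p = 0.994).

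Rises in late cells were few. At chr7:52292401-52293800 late KO had 3.2 and 2.8 kb, against 0 and 0 kb in late WT (limma adjusted p = 0.000783), and at chr16:55863401-55864200 late KO had 1.2 and 1.2 kb, against 0 and 0 kb in late WT (limma adjusted p = 0.00181). Neither window had H3K27ac in an early library. Each passed the filter through both late KO libraries alone, and neither could be tested when a late KO library was left out. At chr11:77981601-77983200 late KO had 3.5 and 3.5 kb, against 1.9 and 1.5 kb in late WT, a rise by a log2 of 0.83 (SE 0.151, limma adjusted p = 0.0277) that did not pass under 11 of 16 alternatives. A pair of further rises for the mean of both stages were also unsteady. The window of chr5:108381601-108382800 held 3.3 and 2.1 kb in early KO, against 0 and 0 kb in early WT. Late KO held 1.2 and 2.0 kb there, against 0 and 1.4 kb in late WT, and the limma adjusted p of 0.0477 did not hold under 11 of 15 alternatives. The window of chr11:115228201-115229800 held 1.0 and 0.8 kb in early KO, against 0 and 0 kb in early WT. Late KO held 1.0 and 0.8 kb there, against 0.6 and 0 kb in late WT, and the limma adjusted p of 0.0325 did not hold under 9 of 15. The KO and WT libraries overlapped in late cells in the first window and did not overlap in the other.

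**Figure D5:**
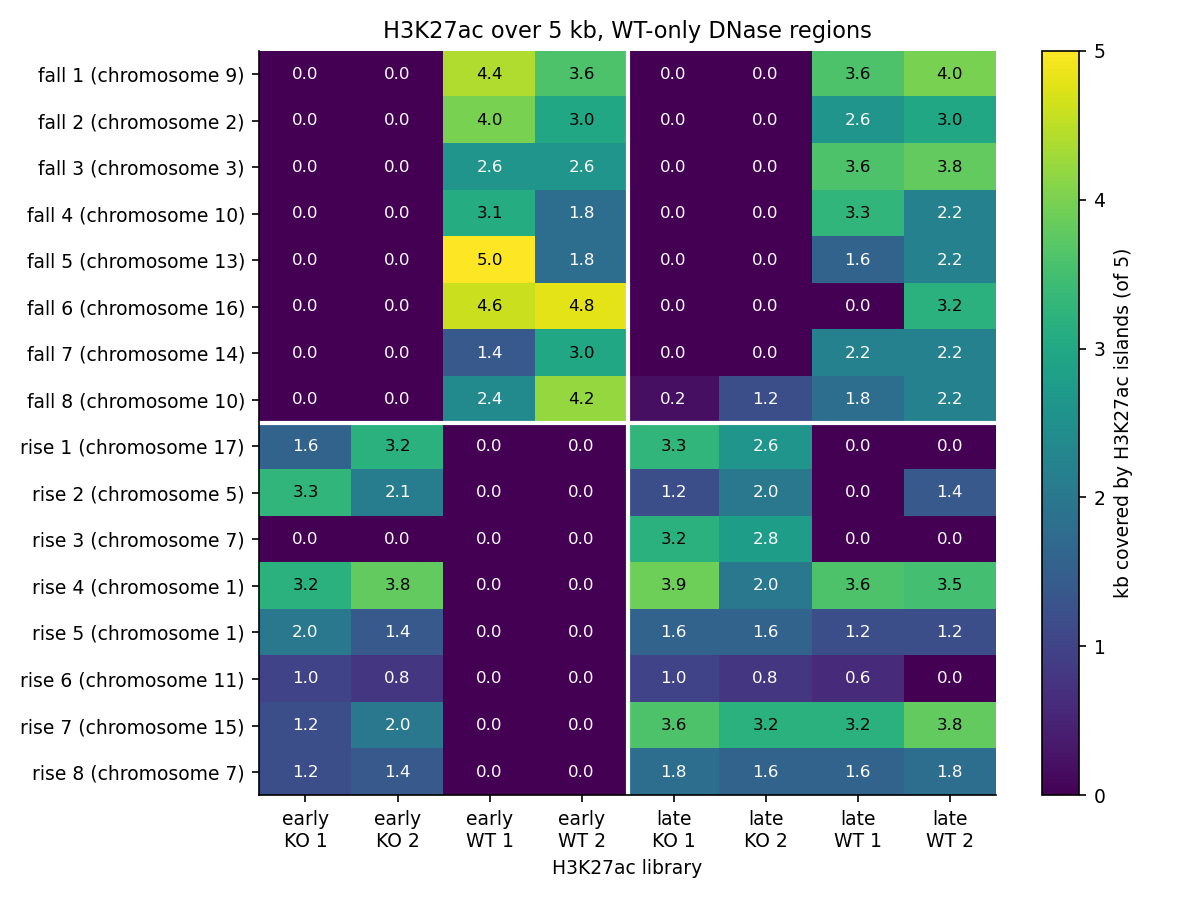
Length of H3K27ac island (kb of 5) in each library at the 8 WT-only DNase regions with the largest fall (top) and the 8 with the largest rise (bottom) for the mean of both stages. In 7 of the 8 falls all 4 KO libraries are at 0, and in all 8 rises both early WT libraries are at 0.

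The KO effect on H3K27ac differed between stages at 58 members (10.7% of those tested), where 8.34% of all tested regions differed. This share fell below that of all tested regions when any of 3 WT libraries was left out. It was 5.79% (31 members) against 7.03% without early WT replicate 1, 5.57% (29 members) against 7.01% without late WT replicate 1, and 6.86% (35 members) against 8.04% without late WT replicate 2. The late effect was the lower one at 37 of the 58 (6.8% of tested members, against 6.05% of all tested regions) and the higher one at 21 (3.86%, against 2.28%). Besides the chr1:133598801-133601200 and chr3:52101201-52105200 windows, the largest were 2 windows empty in early KO alone. At chr8:35744401-35746600 late KO had 4.2 and 4.0 kb, against 3.2 and 3.4 kb in late WT, and early KO had 0 and 0 kb, against 4.2 and 2.4 kb in early WT (limma adjusted p = 0.00342 for the difference between stages). At chr12:117707401-117708000 late KO had 2.8 and 2.6 kb, against 2.6 and 2.8 kb in late WT, and early KO had 0 and 0 kb, against 3.2 and 3.2 kb in early WT (limma adjusted p = 0.00294). In both windows late KO was at or above the level of late WT, so that H3K27ac stood there in late KO without a DNase island.

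In WT cells alone, H3K27ac at the members was more often higher than lower in late cells. It rose in late WT relative to early WT at 78 members (14.3% of those tested), where 8.37% of all tested regions rose, and fell at 12 (2.21%), where 4.28% of all tested regions fell. In the windows of the 78, H3K27ac averaged 2.51 kb in late WT and 0.52 kb in early WT, and both early WT libraries were at 0 for 53. A window could pass the filter through both late WT libraries alone. With no filter, 71 of the 732 members rose (9.7%), where 5.64% of all regions rose, and 10 fell (1.37%), where 2.82% fell. The share of rises came close to that of all tested regions without 1 late WT library. It was 8.25% (43 members) against 7.18% without late WT replicate 1 and 6.86% (35 members) against 6.21% without late WT replicate 2. The count of falls was smaller without early WT replicate 1 or early WT replicate 2 and larger without late WT replicate 2. In each of these settings the share of members that fell stayed below that of all tested regions. This comparison shares the WT libraries with those of KO against WT. All of these members were open in early WT by the rule, so at the 53 the DNase island was listed in early WT cells and H3K27ac was not.

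Members without H3K27ac included some of the stronger members by DNase score, which lay near the middle of the WT lists. The window was empty in all 8 libraries for 154 members, and 177 had no H3K27ac island over the region itself. Among those 177, the strongest by DNase were chr13:23783001-23784600 (mean WT percentile 58.8), chr8:87467601-87471400 (52.6), chr17:24676001-24678200 (44.2) and chr11:49409801-49411000 (43.7). All 4 windows were at 0 kb in every KO and WT library.

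The widest members differed from each other in H3K27ac. The widest, chr6:83663601-83671200, spanned 7600 bp, and its 5-kb window was filled in late KO, late WT and early WT, with 3.9 and 4.1 kb in early KO, against 5.0 and 5.0 kb in early WT. It fell in early KO by a log2 of -0.35 (SE 0.053, limma adjusted p = 0.00726). Its fall for the mean of both stages (log2 -0.19, limma adjusted p = 0.0185) was not called under 7 of 16 alternatives, where p reached 0.698 with a 2-kb window. A filled window can show no further gain. The next, chr15:102997401-103003400 (6000 bp), did not pass (limma adjusted p = 0.939 for the mean of both stages), and the third, chr1:82285601-82291400 (5800 bp), had no H3K27ac in any library.

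The densest group of members lay on chromosome 17, where 4 of them lay close together, at 84425001-84426400, 84455001-84457000, 84460601-84462000 and 84462401-84464000. The last was not among the members selected for naming and is given because it completes the group. Their mean WT percentiles were 14.7, 46.1, 21.1 and 32.1. H3K27ac was in the window of the third in 2.6 and 1.6 kb in early KO, against 5.0 and 3.6 kb in early WT, and in 5.0 and 3.2 kb in late KO, against 5.0 and 5.0 kb in late WT. None of the 4 passed for the mean of both stages, with limma adjusted p-values of 0.245, 0.721, 0.0736 and 0.294.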

How the data were processed

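H3K27ac ChIP-seq and DNase-seq lists were used from 16 libraries, grouped by the labels. The submitters' processing notes name CASAVA 2.18, Bowtie2, SICER 1.1 and the build mm9. Each deposited list gives position and a score per island, the authors' own caller value, used only to rank islands within a list. Each library has its own list, and control libraries were not used here. Read numbers are unknown, so no counting intervals are given.

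The members and all lists and tests here were chosen with earlier results of these data known. H3K27ac lengths in 5-kb windows were taken as log2(kb + 0.5), libraries were centred on the median of windows covered in all 8, and the 4 groups entered 1 limma fit (version 3.58.1, lmFit and eBayes with trend, R 4.3.3), after the fit was tested on simulated data. Other steps used Python 3.11.15, numpy 2.4.6, pandas 2.3.3 and matplotlib 3.10.9. The 7 pairs of neighbouring members with overlapping windows share H3K27ac. Named regions are the 10 strongest by DNase percentile, the 8 largest falls and rises for the mean of both stages, the 4 per stage and direction, the 4 largest stage differences, the 3 widest, the 3 with most neighbours and the 4 strongest without H3K27ac. Gene annotation, marker genes and genome sequence of mm9 were not used here, so regions are named by position.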

Additional observations from a re-analysis of the deposited data

Results flagged for a closer look

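The KO effect on H3K27ac differed between stages, by limma's test of late effect minus early effect, most at 4 WT-only DNase regions. All values are on the log2(kb + 0.5) scale and depend on the added 0.5 kb, since 1 group is listed at 0 in each window. The difference was -3.26 at chr1:133598801-133601200 (limma adjusted p = 0.00362, empty in early WT). It was 3.18 at chr8:35744401-35746600 (limma adjusted p = 0.00342, empty in early KO) and 2.91 at chr12:117707401-117708000 (limma adjusted p = 0.00294, empty in early KO). It was -2.87 at chr3:52101201-52105200 (limma adjusted p = 0.00294, empty in late KO). The first was not called with the upper 50% of each H3K27ac list (limma adjusted p = 0.81). The other 3 could not be tested in that setting, because too few libraries kept H3K27ac in the window. They passed under each of the 15 alternatives that gave a value.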

How the results depend on the processing

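The count of 732 WT-only regions was 198 with DNase lists of equal length, 330 with the upper 50% of each list, 212 with 50% of the region covered by WT islands, 6499 without both early KO lists, and 761 to 3373 with 1 list left out. With the upper 50% of each H3K27ac list, 271 members were tested. Those lower and higher in KO numbered 23 and 9 in early cells, 25 and 2 in late cells and 42 and 11 for the mean. Falls were 8.49% of those tested in early cells (against 2.48% of all tested regions), 9.23% in late cells (against 2.24%) and 15.5% for the mean (against 4.18%). Rises were 3.32% (against 7.58%), 0.738% (against 3.18%) and 4.06% (against 8.86%). In WT 42 rose with time (15.5%, against 7.59%). Of the 92 falls for the mean, 20 were called there too, and 62 with a 2-kb window. Regions made from DNase lists of equal length, added after seeing the data, share only 5 members with the main set, so the counts there are of mostly different regions. They were 9 and 3 (early), 4 and 0 (late) and 10 and 3 (mean). Early falls and rises were 4.92% and 1.64% of those tested, against 1.34% and 7.71% of all regions so made. Late ones were 2.19% and 0%, against 0.987% and 3%. There 5 of 183 tested differed between stages (2.73%, against 5.37% of all regions so made), 4 fell with time (2.19%, against 2.56%) and 5 rose (2.73%, against 6.95%), so the last and the stage difference were below the share of all regions, unlike in the main set. The 0 is limma's, with 4 at an unadjusted p under 0.05. Leaving out 1 library gave 34 to 51 falls and 13 to 28 rises in early cells, 15 to 51 and 2 to 9 in late cells, 50 to 92 and 8 to 25 for the mean, 29 to 58 stage differences, and 3 to 19 falls and 35 to 95 rises with time. In each setting with 1 library left out, falls in KO took a larger share of tested members than of all tested regions. Rises in KO took a smaller share. Both held for early, late and the mean. Direction reversed at chr1:133598801-133601200 with the upper 50% of each list (-0.606 for the mean, -0.017 for early) and at chr7:19424801-19427200 with H3K27ac lists of equal length (-0.028 for the mean). The causes were not tested. Depth is unknown for every list, which limits what an absent island shows.

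The main fit did not pair libraries by replicate number. The deviations of same-numbered KO and WT libraries correlated at -0.011 (early) and 0.052 (late) across regions. These values cannot show whether such libraries came from the same culture or animal, which the labels do not state. With the replicate number as a block, 42 members fell in early cells (7.72% of those tested, against 2.59% of all tested regions). There 14 rose (2.57%, against 8.41%). In late cells 42 fell (7.72%, against 1.98%) and 4 rose (0.735%, against 3.47%). For the mean 84 fell (15.4%, against 4.3%) and 13 rose (2.39%, against 9.63%). There were 51 stage differences (9.38%, against 7.29%). With time 10 fell (1.84%, against 3.8%) and 73 rose (13.4%, against 7.83%).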
